A study of Homo sapiens with 30 samples.

Results

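The control wells of a hookah smoke experiment were compared at 24 h and at 2 h, which shows how unexposed BEAS-2B cells differed between the 2 harvests. The members were chosen by their labels, as the libraries titled as controls at either time, and number 6 of the 30 libraries in the series, with 3 wells at each time. BEAS-2B is an established, immortalised and non-tumorigenic line from human bronchial epithelium. The study kept wells as controls or exposed them for 30 min on a rocker to charcoal with no shisha, charcoal with herbal shisha without tobacco, charcoal with tobacco shisha, or an electronic heater with tobacco shisha, and took RNA 2 h or 24 h after the exposure. The sample titles attach the hours to the exposure itself, whereas the series design gives them as the time after it, and the design is followed here. All groups share this single cell line, and the labels name no other allele or agent. The sources used here do not say what the control wells received, whether their medium was changed or whether each well was a separate culture. What the p-values measure is thus the spread between wells, which may be technical. That spread is pooled over all 10 groups, exposed wells included, and is not that of the control wells alone. The hours elapsed cannot be told apart from anything else that differed between the 2 harvests.

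A few background facts help to read the genes named here. Cells sense oxygen through prolyl hydroxylases that mark the alpha subunits of the hypoxia-inducible factors (HIF1A and EPAS1) for degradation by the VHL ubiquitin ligase. When the subunits are stable they pair with ARNT, bind short hypoxia response elements, and raise genes of glucose uptake, glycolysis, mitophagy and collagen hydroxylation. Sterol synthesis is governed by the SREBP factors, which are released from the endoplasmic reticulum by SCAP when sterols are low, and which act on promoters together with the CCAAT-binding factor NF-Y. Shortage of amino acids and several other stresses raise the factor ATF4, which acts through C/EBP-ATF response elements on genes of serine and asparagine synthesis, amino acid transport and tRNA charging. These statements are background and not results of these data.

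The sequences below show the short motifs those factors are known to use in promoters of genes that changed between 2 h and 24 h. They are the 250 bases before the transcript start in RefSeq (GRCh38.p14, the same build as hg38), read 5′ to 3′ on the gene's strand, with motif matches on either strand in capitals. The first 3 genes rose and belong to the hypoxia list, and capitals mark the hypoxia response core, ACGTG or GCGTG, or its reverse complement. BNIP3, a mitophagy receptor, had 6 matches in chr10:131981924-131982173 (minus strand). LDHA, the lactate dehydrogenase A chain, had 5 in chr11:18394313-18394562 (plus strand), and ALDOC, aldolase C, had 5 in chr17:28576896-28577145 (minus strand). A CACGTG site counts as a match on each strand.
BNIP3: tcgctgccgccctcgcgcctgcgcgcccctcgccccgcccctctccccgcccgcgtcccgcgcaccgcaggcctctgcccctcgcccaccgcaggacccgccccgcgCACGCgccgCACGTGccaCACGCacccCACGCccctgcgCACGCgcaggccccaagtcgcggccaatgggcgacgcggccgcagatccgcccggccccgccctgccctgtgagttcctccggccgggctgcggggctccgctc
LDHA: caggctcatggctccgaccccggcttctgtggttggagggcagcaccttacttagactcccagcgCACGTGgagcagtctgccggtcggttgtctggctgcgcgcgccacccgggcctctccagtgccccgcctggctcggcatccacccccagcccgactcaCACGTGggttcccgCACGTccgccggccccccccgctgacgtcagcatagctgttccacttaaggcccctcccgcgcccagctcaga
ALDOC: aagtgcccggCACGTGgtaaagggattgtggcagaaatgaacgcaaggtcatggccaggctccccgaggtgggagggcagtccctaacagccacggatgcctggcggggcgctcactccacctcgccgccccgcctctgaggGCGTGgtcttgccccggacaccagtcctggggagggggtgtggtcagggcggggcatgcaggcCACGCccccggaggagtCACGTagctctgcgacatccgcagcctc

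HMGCS1, the cytosolic HMG-CoA synthase, and LSS, lanosterol synthase, fell and belong to the cholesterol synthesis list. Their capitals mark the CCAAT box, CCAAT or its reverse complement, with 2 matches in chr5:43313413-43313662 (minus strand) and 1 in chr21:46228775-46229024 (minus strand).
HMGCS1: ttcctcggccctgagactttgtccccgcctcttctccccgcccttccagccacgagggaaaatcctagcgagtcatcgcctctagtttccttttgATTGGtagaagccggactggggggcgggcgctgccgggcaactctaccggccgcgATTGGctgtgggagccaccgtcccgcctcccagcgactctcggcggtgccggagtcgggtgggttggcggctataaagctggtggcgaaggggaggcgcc
LSS: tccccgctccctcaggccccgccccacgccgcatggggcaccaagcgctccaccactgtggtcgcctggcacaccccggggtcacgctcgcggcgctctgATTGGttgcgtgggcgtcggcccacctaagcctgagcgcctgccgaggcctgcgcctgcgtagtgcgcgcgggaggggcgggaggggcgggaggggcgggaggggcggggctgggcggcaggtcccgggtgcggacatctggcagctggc

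CHAC1, a glutathione-degrading enzyme, and ASNS, asparagine synthetase, rose and belong to the amino acid response list. Capitals mark TGATGNAA, a form of the amino acid response element, or its reverse complement. The CHAC1 window is chr15:40953221-40953470 (plus strand). For ASNS 30 bases around its match, chr7:97872458-97872487 (minus strand), are shown.
CHAC1: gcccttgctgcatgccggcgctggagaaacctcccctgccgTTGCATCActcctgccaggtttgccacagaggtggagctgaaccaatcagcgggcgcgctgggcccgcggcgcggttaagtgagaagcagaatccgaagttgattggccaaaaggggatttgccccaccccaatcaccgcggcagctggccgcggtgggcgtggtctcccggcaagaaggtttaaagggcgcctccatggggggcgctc
ASNS: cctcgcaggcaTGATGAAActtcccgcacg

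Across these windows, the hypoxia core stood in 24 of the 32 hypoxia genes that rose and had a promoter in the table (75.0%), against 58.8% of the 6665 tested genes with a promoter and 43.1% of all 27305 promoters. The CCAAT box stood in 8 of the 8 cholesterol synthesis genes that fell and had a promoter, against 35.4% of tested genes and 33.0% of all promoters. The TGATGNAA element stood in 3 of 7 such amino acid response genes that rose (42.9%), against 1.35% of tested genes and 3.19% of all promoters. The cholesterol genes also held the hypoxia core in 75.0% of cases, so that share did not single out the genes that rose. It was 88.9% in the tRNA synthetase genes that rose and 59.7% in all genes that rose. Nor was the CCAAT box particular to genes that fell. It stood in 71.4% of the amino acid response genes that rose, and in 37.6% of all genes that fell. The sterol element core TCACNCCAC was in 0 of those 8 windows and in 0.875% of all promoters. A match is a description of these letters and no evidence of binding.

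Values are FPKM, fragments per kilobase of transcript scaled to the reads mapped in each library, so levels may be set side by side between genes on this per-length scale. Changes are differences of log2(FPKM + 1), 24 h minus 2 h, with the SE of the fit, a scale that understates fold changes of FPKM, most at low levels. A gene was called, and is said to have risen or fallen, at a Benjamini-Hochberg adjusted p below 0.05 over 8531 tested genes. Of these, 1440 were called (16.9%), 635 higher (7.44%) and 805 lower (9.44%) at 24 h. Most changes were small, as 20 genes rose by 1 or more on this scale (0.234%) and 7 fell by 1 or more (0.0821%), and the median over all tested genes was -0.01. The 3 wells at 24 h lay wholly above or below the 3 at 2 h for 3816 genes (44.7%). Without the third 2 h well 885 genes were called, 405 higher and 480 lower. Without the first 2 h well 533 were lower.

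The libraries held 7834 to 7936 genes at 1 FPKM or more. Log2 values of wells of a group correlated at 0.9896 to 0.9923 across genes, which are not independent replicates. The first principal component of the 6 libraries took 41.6% of the variance and separated the times. The second took 18.7% and set the third 24 h well (13.7) apart from the others of its time (-7.77 and -6.63). Depth per library is unknown, since the files hold no read counts.

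Markers of the labelled cell type were read in the same wells. The epithelial keratins KRT8 (534.5 and 560.4 FPKM at 2 h and 24 h), KRT18 (322.3 and 351.1 FPKM) and KRT19 (49.0 and 52.5 FPKM) were present, while the basal keratins KRT5 and KRT14 were listed at 0 in all 6 wells and EPCAM and CDH1 stayed below 1 FPKM. Of 11 fibroblast markers 4 were tested and 0 were called, with the whole list summing to 344.7 to 344.9 FPKM at 2 h and 304.6 to 324.7 FPKM at 24 h. COL1A1 (167 and 138 FPKM) and THY1 (134 and 141 FPKM) made up most of it, and DCN and POSTN were listed at 0. Of 11 immune markers 6 were listed at 0 in all wells and the pan-leukocyte gene PTPRC did not exceed 0.012 FPKM. CD68, a lysosomal glycoprotein, rose from 8.25 ± 1.15 to 12.3 ± 1.38 FPKM (SD, n = 3 each, adjusted p = 0.025, limma, a call lost in 4 of the 6 fits that left a library out), and the immune list summed to 19.96 to 21.2 FPKM at 2 h and 22.8 to 25.02 FPKM at 24 h. The part of these markers in the changes reported here was not tested, and in bulk RNA fewer cells of a kind and less RNA per cell cannot be told apart.

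**Figure D1:**
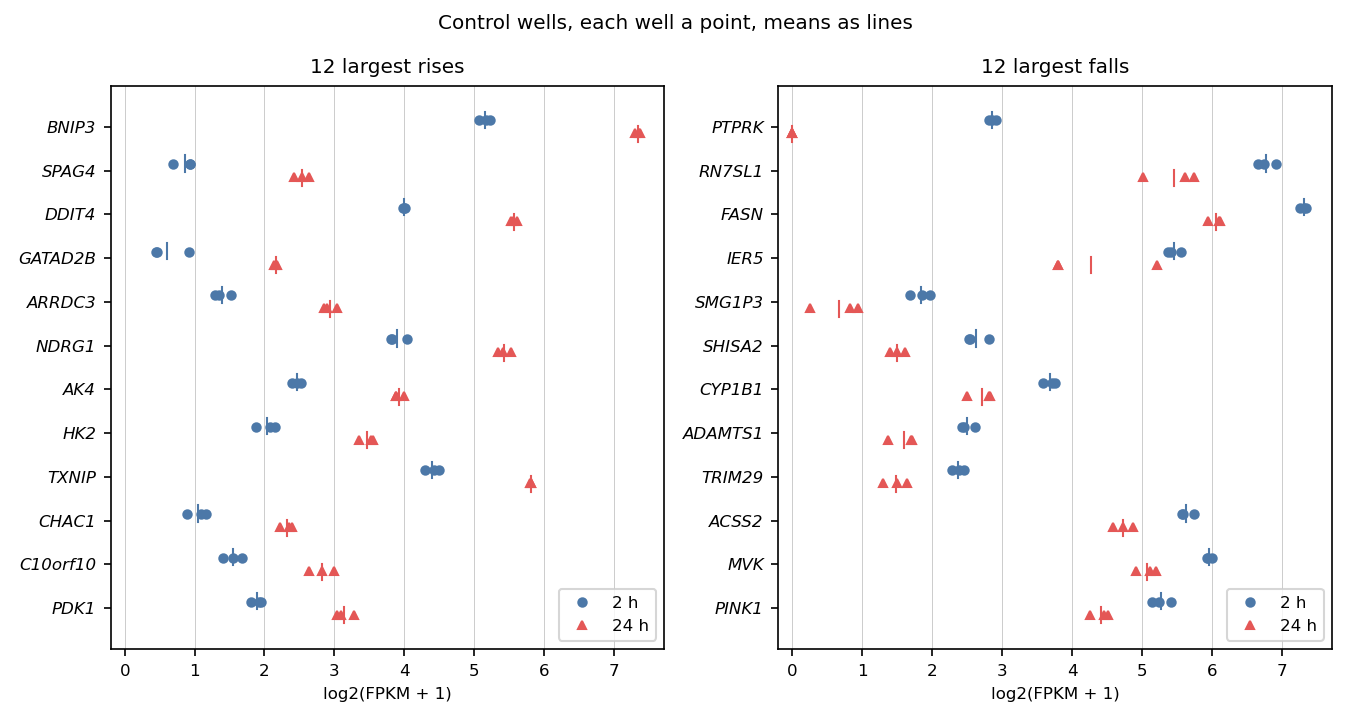
Levels of the 12 genes with the largest rises (left) and the 12 with the largest falls (right) in the 6 control wells, as log2(FPKM + 1), with a circle for each 2 h well, a triangle for each 24 h well and a line at each mean. Both sets were drawn from called genes that averaged 1 FPKM or more over the 6 wells, with no overlap between times. BNIP3 moved from a mean of 34.7 to 162 FPKM, PTPRK was listed at 0 in all 3 wells at 24 h, and 1 IER5 well at 24 h (35.9 FPKM) lay close to the 2 h wells.

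The largest rises and falls were taken among called genes that averaged 1 FPKM or more and whose wells did not overlap between times. Their lack of overlap was thus set by the choice. Of the 12 largest rises 6 were on the hypoxia list, BNIP3, DDIT4, NDRG1, AK4, HK2 and PDK1 (on a non-coding transcript). CHAC1 was on the amino acid response list. BNIP3 stood at 34.9, 36.4 and 32.6 FPKM at 2 h and at 164, 166 and 158 FPKM at 24 h. All 3 wells at 24 h lay far above all 3 at 2 h, and the rise was 2.20 ± 0.09 (log2 ± SE, adjusted p = 4.19e-14, limma). DDIT4, an inhibitor of mTORC1 signalling, was at 14.8, 15.2 and 14.99 FPKM at 2 h and 45.1, 48.3 and 46.1 FPKM at 24 h. NDRG1, a stress-responsive gene of differentiation, was at 13.2, 13.1 and 15.5 FPKM and then at 41.9, 45.1 and 39.5 FPKM. The rises were 1.57 ± 0.15 for DDIT4 and 1.54 ± 0.22 for NDRG1. TXNIP, which curbs glucose uptake and binds thioredoxin, was at 20.4, 21.6 and 18.7 FPKM at 2 h and 54.8, 55.6 and 55.3 FPKM at 24 h. Its relative ARRDC3 was at 1.46, 1.87 and 1.56 FPKM and then at 6.25, 6.45 and 7.26 FPKM. TXNIP rose by 1.41 ± 0.15 and ARRDC3 by 1.54 ± 0.18. AK4, a mitochondrial adenylate kinase, rose from 4.52 ± 0.25 to 14.2 ± 0.71 FPKM (SD, n = 3 each). SPAG4, a SUN-domain protein of the nuclear envelope, rose from 0.815 ± 0.17 to 4.81 ± 0.44 FPKM, and C10orf10 from 1.93 ± 0.27 to 6.09 ± 0.89 FPKM. GATAD2B, a subunit of the NuRD chromatin complex, was at 0.363, 0.898 and 0.375 FPKM and then at 3.55, 3.42 and 3.48 FPKM. A second listing of the same transcript read 0 in the 3 wells at 2 h, and an exact 0 can be a failed estimate.

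The largest falls were a mixed set. PTPRK, a receptor tyrosine phosphatase, was at 5.98, 6.20 and 6.499 FPKM at 2 h and was listed at 0 in the 3 wells at 24 h. The adjusted p was 0.0285, and no call was made when any 1 of the 6 libraries was left out. RN7SL1, a copy of the signal recognition particle RNA with near-identical relatives, was at 106, 99.8 and 119 FPKM and then at 31.3, 47.9 and 52.7 FPKM. FASN, the fatty acid synthase, was at 162, 152 and 159 FPKM at 2 h and at 67.4, 68.3 and 60.8 FPKM at 24 h. Its wells were wide apart and it fell by 1.26 ± 0.08 on the log2 scale (adjusted p = 5.07e-10). IER5, an immediate early gene, was at 40.4, 41.6 and 46.2 FPKM and then at 35.9, 12.9 and 12.9 FPKM. The first 24 h well was near the 2 h level, and the IER5 call (adjusted p = 0.036) was lost without any 1 of the other 5 libraries and when the 6 control libraries were fitted alone. SHISA2, an endoplasmic reticulum protein that restrains WNT and FGF receptors, fell from 5.20 ± 0.69 to 1.84 ± 0.22 FPKM, and TRIM29 from 4.18 ± 0.33 to 1.80 ± 0.32 FPKM. PINK1, the kinase that marks damaged mitochondria, was at 36.8, 34.3 and 41.6 FPKM and then at 20.9, 21.9 and 18.2 FPKM. It fell by 0.85 ± 0.11. SMG1P3, a pseudogene that may share reads with its relatives, fell by 1.16 ± 0.36 and lost its call in 5 of the 6 fits that left a library out.

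**Figure D2:**
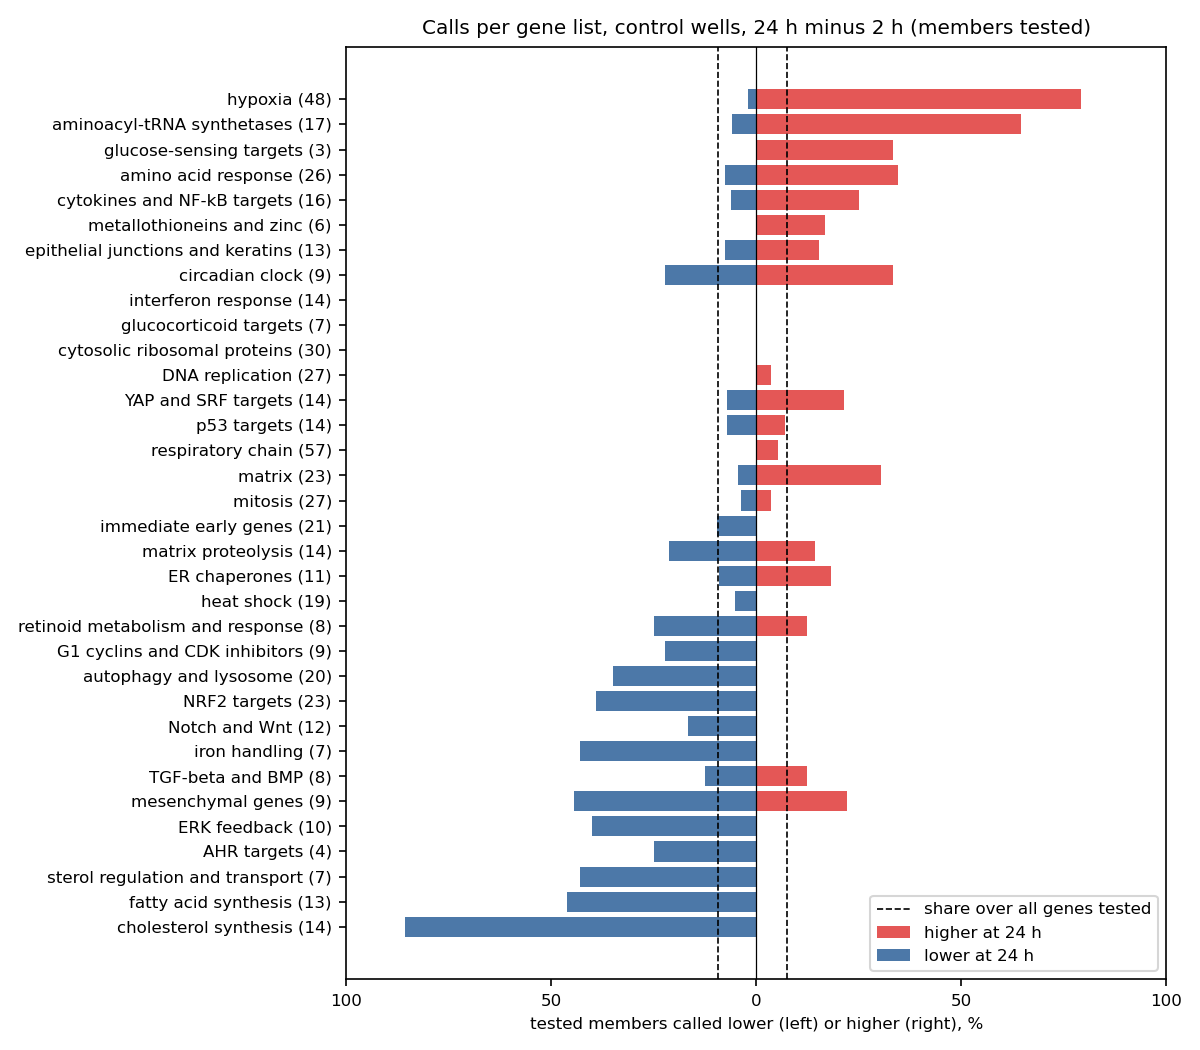
Share of the tested members of each gene list called higher (right, red) or lower (left, blue) at 24 h than at 2 h, ordered by list median, with dashed lines at the shares over all tested genes (7.44% higher, 9.44% lower) and the number tested in brackets. The hypoxia list reached 79.2% higher and the cholesterol synthesis list 85.7% lower, whereas ribosomal, interferon and glucocorticoid lists had no call.

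Most genes of the hypoxia list rose. Of 64 listed genes 48 were tested, and 38 rose, 1 fell and 9 did not pass the test, with a median of 0.54 against -0.01 over all genes. The list holds sensors and regulators of the pathway beside known targets of the hypoxia-inducible factors. Leaving out any library left 35 to 38 of them higher.

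The oxygen-sensing machinery itself moved unevenly. HIF1A averaged 139 ± 6.4 FPKM at 2 h and 125 ± 6.2 FPKM at 24 h (adjusted p = 0.11). EPAS1, the HIF-2 alpha subunit, was at 64.9, 63.0 and 67.2 FPKM and then at 40.1, 40.1 and 34.6 FPKM. The EPAS1 wells did not overlap and it fell by 0.75 ± 0.05, the sole member of the list to fall. EGLN3, an oxygen-sensing hydroxylase that is also a target, rose from 0.511 ± 0.086 to 1.14 ± 0.096 FPKM, a call lost without the first 24 h well, and CITED2, which limits the factors by competing for p300, from 64.8 ± 0.53 to 93.7 ± 13 FPKM. VHL (5.06 and 4.75 FPKM) and HIF1AN (12.9 and 12.6 FPKM) had overlapping wells.

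Of the listed genes of glucose and lactate transport 2 of the 3 tested rose. The glucose transporter SLC2A1 rose from 66.1 ± 0.64 to 86.4 ± 6.0 FPKM and the lactate exporter SLC16A3 from 203 ± 3.3 to 279.5 ± 8.2 FPKM, while SLC16A1 stood at 26.2 and 28.2 FPKM (adjusted p = 0.22). Of 17 listed glycolytic genes 13 were tested and 11 rose, and the others are not analysed here. HK2, the inducible hexokinase, was at 3.45, 3.22 and 2.70 FPKM and then at 10.5, 10.7 and 9.21 FPKM, a rise of 1.44 ± 0.10. The major hexokinase HK1 rose only from 56.4 ± 1.3 to 63.0 ± 1.3 FPKM, and stayed above HK2 in FPKM at 24 h. PGK1 rose from 204 ± 5.4 to 395 ± 33 FPKM, ALDOA from 325 ± 14 to 480 ± 26 FPKM, and ALDOC, the less abundant aldolase, from 16.6 ± 0.76 to 40.8 ± 3.0 FPKM. ENO1, the most abundant of these enzymes, rose from 982 ± 4.0 to 1315 ± 3.9 FPKM, and GPI, PFKP and PFKL also rose. LDHA was at 261, 280.5 and 175 FPKM at 2 h and at 513, 531 and 487 FPKM at 24 h. The third 2 h well was lower than its neighbours, but no well overlapped, and LDHA rose by 1.12 ± 0.22 (adjusted p = 0.000891). PFKFB3, which makes the activator of phosphofructokinase, rose from 8.37 ± 0.087 to 15.9 ± 0.39 FPKM, whereas its relative PFKFB4 was at 6.46 and 7.39 FPKM (adjusted p = 0.41). TPI1 was at 166 ± 27 and 200 ± 75 FPKM with overlapping wells.

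All 6 mitochondrial members rose. PDK1, which closes pyruvate dehydrogenase to pyruvate, was at 2.77, 2.85 and 2.51 FPKM and then at 8.71, 7.59 and 7.23 FPKM, a rise of 1.25 ± 0.09. The transcript kept for PDK1 is a non-coding one, so these values are not those of its protein-coding transcripts. PDK3 rose from 1.40 ± 0.15 to 2.14 ± 0.063 FPKM. BNIP3L, the mitophagy receptor related to BNIP3, rose from 41.4 ± 0.26 to 67.5 ± 1.9 FPKM and FAM162A from 29.9 ± 1.5 to 53.3 ± 1.8 FPKM. The respiratory chain itself hardly moved beside them, as 3 of its 57 tested subunits rose and 0 fell, with a median of 0.01. Those 3 were NDUFB5 (82.7 to 99.7 FPKM), ATP5E (145 to 157 FPKM) and SDHC (34.6 to 38.5 FPKM), and 1 was called without the third 2 h well or without the first 24 h well.

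The collagen hydroxylases P4HA2, PLOD1 and PLOD2 all rose, P4HA2 from 42.0, 43.2 and 40.6 FPKM to 68.4, 70.0 and 63.1 FPKM. Of 4 secreted factors 2 rose. VEGFA, the vascular growth factor, went from 3.39 ± 0.51 to 6.97 ± 0.53 FPKM and STC1, stanniocalcin 1, from 0.870 ± 0.019 to 2.86 ± 0.22 FPKM. ADM was at 53.98 and 48.9 FPKM with overlapping wells, and ANGPTL4 was below 1 FPKM at both times. The 3 histone demethylases KDM3A, KDM4B and KDM4C rose, KDM3A from 6.62 ± 0.26 to 11.8 ± 0.20 FPKM. The calls of KDM4B and KDM4C were lost in 5 and 2 of the 6 fits that left a library out. Among the other targets 9 of 10 rose, including MXI1, a MYC antagonist (3.18 to 6.28 FPKM), HILPDA, a lipid droplet protein (4.10 to 7.19 FPKM), INSIG2, which retains SCAP (7.45 to 10.8 FPKM), and MIR210HG, the host transcript of a hypoxia-induced microRNA (0.364 to 1.29 FPKM).

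**Figure D3:**
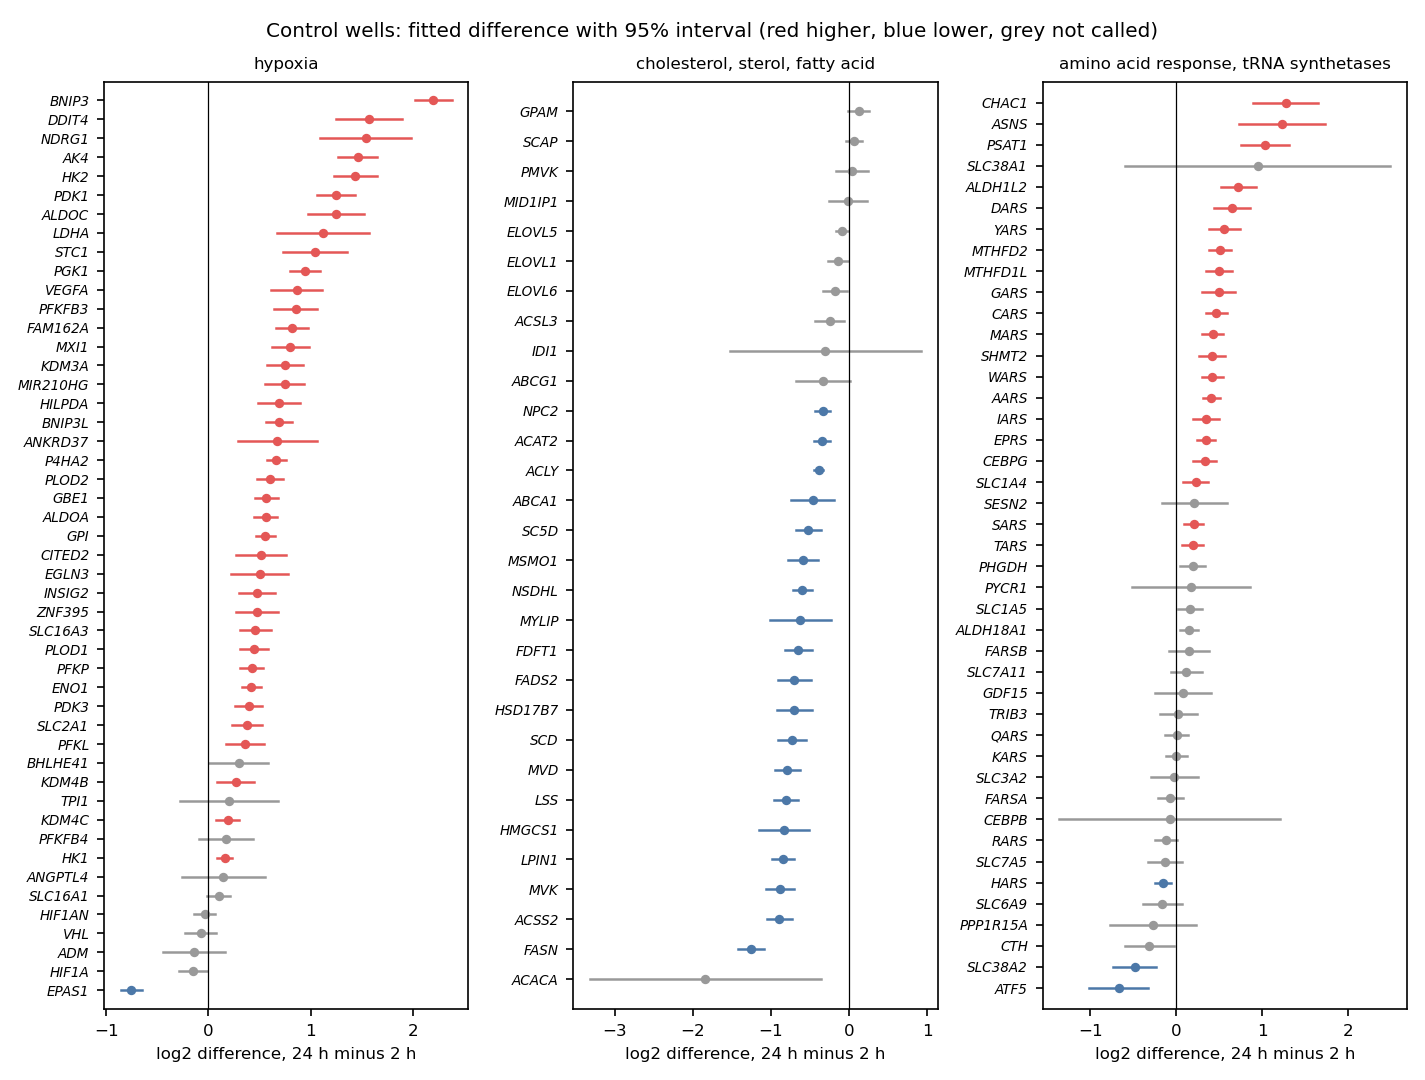
Fitted change of tested members of the hypoxia list (left), of the cholesterol, sterol and fatty acid lists (middle) and of the amino acid response and tRNA synthetase lists (right), as log2 difference 24 h minus 2 h with its 95% interval, red where higher, blue where lower and grey where not called. Nearly all hypoxia genes lie right of 0 and nearly all sterol and fatty acid genes left of it, and the wide bars of ACACA and SLC38A1 come with wells listed at or near 0 or far from their neighbours.

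Cholesterol synthesis fell as a block. Of 14 tested enzymes 12 fell, 0 rose, and the median was -0.60. The count was 12 in every alternative fit, leave-one-out fits included. The pathway begins with ACAT2 (178 to 140 FPKM) and HMGCS1, which was at 81.3, 61.4 and 61.8 FPKM and then at 43.9, 34.5 and 34.5 FPKM. HMGCS1 wells did not overlap, and it fell by 0.84 ± 0.16 (adjusted p = 0.0006). MVK, mevalonate kinase, was at 60.2, 59.7 and 63.1 FPKM and then at 35.6, 33.5 and 28.98 FPKM. Its fall of 0.89 ± 0.08 was the largest among the 14 tested enzymes. MVD fell from 35.3 ± 0.97 to 20.05 ± 2.0 FPKM, FDFT1, squalene synthase, from 83.0 ± 7.4 to 52.5 ± 3.4 FPKM, and LSS, which closes the sterol rings, from 56.7 ± 0.98 to 32.1 ± 3.3 FPKM. Of the later enzymes MSMO1, NSDHL, HSD17B7 and SC5D fell by 0.52 to 0.70. PMVK (19.0 and 19.4 FPKM) and IDI1 had overlapping wells, IDI1 with 30.5, 10.5 and 11.5 FPKM at 2 h.

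Sterol regulation followed less uniformly, with 3 of 7 tested genes lower. The LXR targets MYLIP (7.43 to 4.47 FPKM) and ABCA1 (3.73 to 2.42 FPKM) fell, as did the lysosomal carrier NPC2 (140 to 110 FPKM). The count was 1 without the first 2 h well or the first 24 h well, and 6 when the 6 control libraries were fitted alone, and the MYLIP call was lost without any 1 library. SCAP was at 27.9 and 29.2 FPKM.

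The fatty acid synthesis list fell in part, with 6 of 13 tested genes lower (46.2%), 0 higher, 7 not called and a median of -0.39. ACLY, which makes cytosolic acetyl-CoA from citrate, fell from 205 ± 2.2 to 156 ± 3.8 FPKM, and ACSS2, which makes it from acetate, from 48.5 ± 3.4 to 25.7 ± 2.6 FPKM. The desaturases SCD (277 to 167 FPKM) and FADS2 (302 to 186 FPKM) fell by 0.73 and 0.70, and LPIN1, a phosphatidate phosphatase, by 0.85. ACACA, acetyl-CoA carboxylase, read 2.75, 2.74 and 2.66 FPKM at 2 h and 0, 0.0592 and 0.0584 FPKM at 24 h on the transcript kept for it. It was not called (adjusted p = 0.079). The elongases ELOVL1, ELOVL5 and ELOVL6 differed by -0.09 to -0.18 and were not called.

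Genes of amino acid supply rose in part. Of 26 tested amino acid response genes 9 rose (34.6%) and 2 fell (7.69%), against 7.44% and 9.44% of all tested genes. The median was 0.16. ASNS was at 6.32, 7.95 and 6.67 FPKM and then at 17.3, 16.4 and 19.5 FPKM. The wells were well apart, and ASNS rose by 1.23 ± 0.24 (adjusted p = 0.000939). The rises lay mainly in synthesis, in 6 of 10 genes. PSAT1 of the serine pathway rose from 32.4 ± 0.96 to 67.7 ± 7.7 FPKM, and the mitochondrial folate enzymes SHMT2 (92.3 to 124 FPKM), MTHFD2 (42.8 to 61.4 FPKM), MTHFD1L (8.50 to 12.4 FPKM) and ALDH1L2 (0.368 to 1.26 FPKM) rose beside it. PHGDH, the first enzyme of serine synthesis, was at 97.2 and 111 FPKM (adjusted p = 0.062). CHAC1 was at 1.24, 0.855 and 1.13 FPKM and then at 4.24, 4.13 and 3.65 FPKM, a rise of 1.27 ± 0.18. Transporters differed among themselves: SLC1A4 rose (15.1 to 17.8 FPKM), SLC38A2 fell (188 to 133 FPKM), and the leucine exchanger SLC7A5 stood at 207 and 190 FPKM. The SLC1A4 call was lost in 5 of the 6 fits that left a library out, and the SLC38A2 call without the third 2 h well. SLC38A1 read 19.4, 19.2 and 3.95 FPKM at 2 h and was not called. Of the regulators CEBPG rose (10.7 to 13.8 FPKM), ATF5 fell (9.33 to 5.67 FPKM, not called without the first 24 h well or with the 6 control libraries fitted alone), and TRIB3, a widely used reporter of the stress response, was at 20.7 and 21.2 FPKM. ATF4 and DDIT3 are not analysed here.

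Most of the tested enzymes that charge tRNAs with amino acids rose. Of 17 tested cytosolic synthetases 11 rose and 1 fell, with a median of 0.35, and 10 or 11 rose when any library was left out. AARS was at 31.1, 32.1 and 30.0 FPKM and then at 41.8, 41.4 and 41.6 FPKM. CARS rose from 14.8 ± 0.12 to 20.9 ± 0.80 FPKM, MARS from 51.8 ± 1.0 to 69.9 ± 2.0 FPKM, and YARS and DARS by 0.56 and 0.65. HARS fell from 58.1 ± 1.8 to 51.9 ± 1.2 FPKM, a call lost without the third 2 h well or the second 24 h well. QARS, KARS, RARS, FARSA and FARSB were not called.

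Genes of the antioxidant factor NRF2, the aryl hydrocarbon receptor and iron import were lower or not called. Of 23 NRF2 targets 9 fell (39.1%, against 9.44% of all tested genes) and 0 rose, with a median of -0.14. NQO1, the quinone reductase, was at 64.3, 64.2 and 69.9 FPKM and then at 40.3, 40.1 and 36.8 FPKM. No well overlapped, and NQO1 fell by 0.74 ± 0.07 (adjusted p = 1.72e-07). The pentose phosphate and NADPH genes PGD, TKT and ME1 fell, ME1 from 13.6 ± 0.71 to 9.02 ± 0.61 FPKM, while TALDO1 was at 149 and 165 FPKM (adjusted p = 0.11). The PGD call was lost in 4 of the 6 fits that left a library out. Of the 7 glutathione and thioredoxin genes GCLC fell, from 7.69 to 6.30 FPKM. CYP1B1, a target of the aryl hydrocarbon receptor, was at 12.1, 12.5 and 11.03 FPKM and then at 6.09, 6.04 and 4.62 FPKM, a fall of 0.98 ± 0.21. It was called among 4 tested genes of the receptor and its targets, and 3 of them were called lower when the 6 control libraries were fitted alone. TFRC, the transferrin receptor, was at 70.0, 72.8 and 70.8 FPKM and then at 44.8, 44.0 and 47.7 FPKM. It fell by 0.64 ± 0.06, while STEAP3 and ACO1 fell by 0.19 and 0.15. The ACO1 call was lost without any 1 library, and the STEAP3 call without the first 2 h well or the third 24 h well. FTH1, ferritin heavy chain, was at 181 ± 17 and 111 ± 27 FPKM (adjusted p = 0.15). Of 20 autophagy and lysosome genes 7 fell and 0 rose. Among them were GABARAPL1, WIPI1, ULK1, UVRAG, CTSA and CTSD, with falls of 0.15 to 0.41. The count was 4 without any 1 of the 2 h wells and 3 without the third 24 h well.

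Growth signalling showed few calls. Of 21 immediate early genes, the first to answer serum and stress, 2 fell (PHLDA1 and IER5) and 0 rose. That share of 9.52% is close to the 9.44% of all tested genes that fell. EGR1 was at 1.68, 1.98 and 1.57 FPKM and then at 3.07, 3.17 and 1.70 FPKM, with overlapping wells. FOS stayed below 1 FPKM and JUN was at 41.8 and 40.6 FPKM. Of 10 feedback inhibitors of ERK signalling 4 fell, DUSP4 (7.91 to 4.13 FPKM), DUSP5, SPRED2 and SPRY4. DUSP4 alone of these kept its call in every setting, and the count was 1 or 2 without any library other than the second 24 h well. Of 9 G1 cyclins and CDK inhibitors CCND1, cyclin D1, fell from 23.5 ± 0.90 to 13.8 ± 0.26 FPKM and CDKN2B from 26.8 ± 0.62 to 16.6 ± 2.7 FPKM. The CCND1 call (adjusted p = 0.0247) was lost without any 1 of the 6 libraries. CDKN1A, the p21 inhibitor, was at 41.4 ± 1.6 and 43.8 ± 3.3 FPKM with overlapping wells.

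The DNA replication, mitosis and cytosolic ribosomal protein lists were near the background or under it. Of 27 DNA replication genes CDT1 rose (17.4 to 21.3 FPKM) and 0 fell. Of 27 mitosis genes HMMR rose (39.3 to 55.2 FPKM) and CDC25B fell (123 to 93.4 FPKM). Other settings gave up to 5 mitosis genes higher and up to 5 lower. None of the 30 tested cytosolic ribosomal protein genes was called by limma, with a median of 0.05, and this list covers less than its full set since other members are not analysed here. Of 19 heat shock genes CRYAB fell (5.21 to 2.96 FPKM), a call lost without the third 24 h well, and HSPA1A, which is near-identical to HSPA1B, was at 14.1 and 14.2 FPKM. Of 14 p53 targets FDXR rose (14.99 to 18.8 FPKM) and TP53INP1 fell (7.81 to 6.30 FPKM), with calls lost in 2 and 5 of the 6 fits without a library. Each is 7.14% of the list, against 7.44% higher and 9.44% lower over all tested genes. Of 11 chaperones and degradation genes of the endoplasmic reticulum PDIA3 rose (114 to 140 FPKM), MANF fell (67.3 to 59.9 FPKM, not called without the first 2 h well or the third 24 h well), and SEL1L, which read 15.3, 15.4 and 7.25 FPKM at 2 h, was called higher, a call lost in 4 of the 6 fits that left a library out, the one without that well among them.

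Inflammatory genes differed within their list. Of 16 cytokine and NF-kB genes 4 rose (25.0%) and 1 fell (6.25%), against 7.44% and 9.44% of all tested genes. BIRC3 (3.39 to 4.95 FPKM), NFKB2 (8.58 to 11.001 FPKM) and ICAM1 (54.2 to 61.3 FPKM), all NF-kB targets, rose with the chemokine CCL20 (0.459 to 1.06 FPKM). IL6 fell from 7.44 ± 0.24 to 5.55 ± 0.77 FPKM, a call lost with no filter and in 5 of the 6 fits that left a library out. CXCL8 was at 53.1, 54.2 and 56.8 FPKM and then at 60.3, 61.8 and 62.2 FPKM, with no overlap and no call (adjusted p = 0.314). The count of 4 was 1 or 2 without the second or the third 2 h well and without the first or the second 24 h well. None of 14 interferon response genes was called by limma, and ISG15 was at 41.7 and 40.5 FPKM.

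Matrix genes moved selectively. Of 23 tested, 7 rose (30.4%) and 1 fell (4.35%), against 7.44% and 9.44% of all tested genes. Of 4 crosslinking enzymes 3 rose: LOX, lysyl oxidase, was at 8.90, 9.25 and 8.68 FPKM and then at 15.2, 15.2 and 15.3 FPKM, and TGM2 rose from 3.995 ± 0.25 to 8.24 ± 1.7 FPKM with LOXL4, whose call was lost without the first 2 h well. TGFBI, an adhesion protein of the matrix, rose from 335 ± 3.7 to 536 ± 19 FPKM. FN1, fibronectin, fell from 501 ± 14 to 373 ± 11 FPKM, and of 7 collagens COL4A1 was called higher, a call lost in 5 of the 6 fits that left a library out. The matrix count was 3 without the first 2 h well and 4 without the second. Of 14 tested genes of matrix proteolysis 3 fell (21.4%) and 2 rose (14.3%). PLAU (89.8 to 66.8 FPKM), TIMP2 and ADAMTS1 fell, and TIMP1 (85.5 to 96.6 FPKM) and MMP14 rose. The TIMP1 call was lost in 2 of the 6 fits that left a library out, and the MMP14 call in 3 and with the 6 control libraries fitted alone. Of 14 tested targets of the mechanosensitive factors YAP and SRF 3 rose (21.4%) and 1 fell (7.14%). TAGLN (514 to 769 FPKM), AXL (225 to 283 FPKM) and VCL rose and FJX1 fell. The VCL call was lost without the third 2 h well or the first or second 24 h well, and with the 6 control libraries fitted alone.

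Identity genes were called in both directions, and the counts may be read against 7.44% higher and 9.44% lower over all tested genes. Of 9 tested mesenchymal genes 2 rose (22.2%) and 4 fell (44.4%). VIM, vimentin, rose from 664 ± 2.2 to 825 ± 55 FPKM with ZEB1, whereas ZEB2, SNAI2, TWIST2 and S100A4 fell. Without the third 2 h well 1 of those 4 falls was called, SNAI2 lost its call in 4 of the 6 fits that left a library out, and ZEB1 without the third 2 h well or the third 24 h well. Of 13 tested junction and keratin genes 2 rose (15.4%) and 1 fell (7.69%). DSG2, a desmosomal cadherin, rose from 9.17 ± 0.29 to 12.03 ± 0.25 FPKM, KRT81, a hair-type keratin, rose, and CLDN1 fell from 48.1 ± 1.4 to 35.5 ± 6.4 FPKM (not called with the 6 control libraries fitted alone). The clock genes CIART (1.15 to 2.76 FPKM), TEF and NFIL3 rose, and NR1D1 (3.25 to 2.06 FPKM) and ARNTL (2.38 to 1.67 FPKM) fell, out of 9 tested. The ARNTL call was lost in 4 and the NFIL3 call in 5 of the 6 fits without a library, and with 2 times sampled no rhythm could be read. Of 8 tested retinoid genes 1 rose (12.5%) and 2 fell (25.0%). RARA, a retinoic acid receptor, fell from 10.1 ± 0.32 to 5.80 ± 0.32 FPKM, RARG fell, and DHRS3, which clears retinal, rose (6.15 to 8.99 FPKM). The RARG call was lost without any 1 library and the DHRS3 call in 5 of those 6 fits. Of 12 tested Notch and Wnt genes 2 fell (16.7%), and of 8 tested TGF-beta and BMP genes 1 rose and 1 fell (12.5% each). Such small counts are not far from the shares over all genes. WNT5A and SFRP1 of the Wnt list fell, SFRP1 with a call lost without the third 2 h well or the first 24 h well. PMEPA1 of the TGF-beta list fell, and LTBP3 rose but lost its call without any 1 library. Of 6 tested zinc genes SLC39A10 alone was called, and it rose (6.77 to 8.69 FPKM). MT2A was at 397 and 430 FPKM with overlapping wells. None of the 7 glucocorticoid targets was called.

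The exposed wells gave 4 further time courses, each from 24 h and 2 h wells of its own and sharing no library with the control course. Their shifts over all genes differed from the control course: the median gene was 0.08, 0.11, 0.12 and 0.09 higher at 24 h after charcoal alone, herbal shisha on charcoal, tobacco shisha on charcoal and tobacco shisha on the electric heater. The difference between each exposed change and the control change was tested as an interaction. It was called for 1979 genes (23.2%), 2756 genes (32.3%), 3502 genes (41.1%) and 4918 genes (57.6%) in that order. The 4 tests share the 6 control wells. Which side these genes lay on depended on scaling: 69.8%, 74.3%, 73.7% and 60.4% were above the control change as deposited, and 42.0%, 44.9%, 47.0% and 50.8% after median-of-ratios scaling. Of the 635 genes that rose in control wells, 63%, 65%, 57.3% and 47.6% were also called higher in each exposed course, and of the 805 that fell, 37.1%, 36.3%, 34% and 40.6% were called lower. Over all tested genes 30.1%, 36.8%, 39.4% and 40.3% were called higher in those courses and 12.4%, 13.7%, 16% and 27.4% lower. Of the 635 genes 40, 45, 82 and 137 were called lower there, and of the 805 genes 87, 148, 191 and 273 were called higher. In all 4 exposed courses 190 of the former and 97 of the latter were called the same way.

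**Figure D4:**
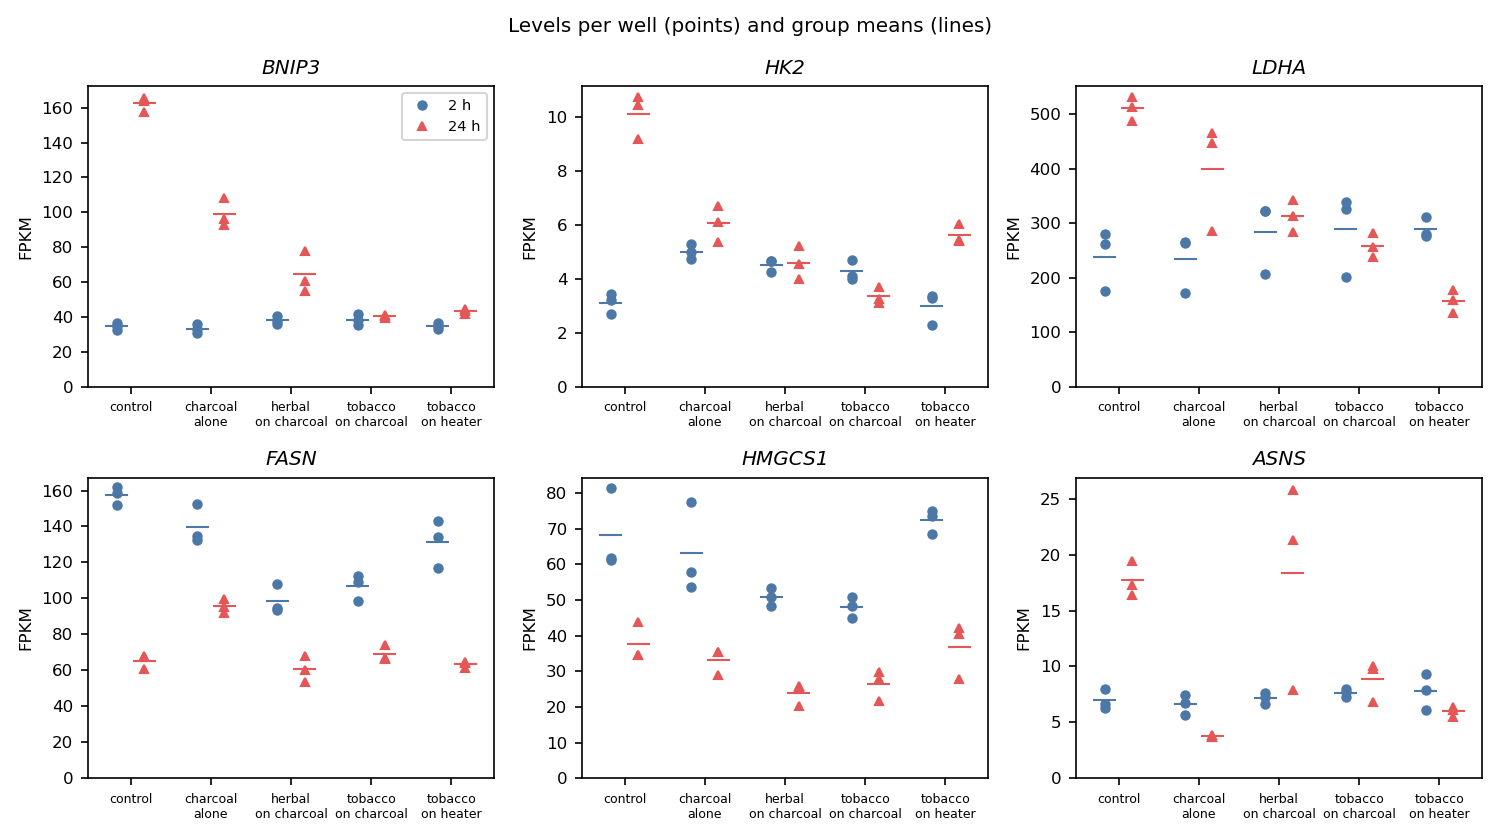
FPKM of BNIP3, HK2, LDHA, FASN, HMGCS1 and ASNS in every well of the 10 groups, with circles at 2 h, triangles at 24 h and lines at group means, on axes that start at 0. BNIP3 stood near 35 FPKM in every group at 2 h, and at 24 h reached 162 FPKM in control wells and 40.4 FPKM after tobacco shisha on charcoal.

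The hypoxia genes rose further in control wells than in most exposed courses. BNIP3 at 2 h averaged 33.4 to 38.5 FPKM in all 5 conditions, control included. At 24 h it averaged 162 ± 4.2 FPKM in control wells, 99.2 ± 7.9 FPKM after charcoal alone, 64.6 ± 12 FPKM after herbal shisha on charcoal, 40.4 ± 0.90 FPKM after tobacco shisha on charcoal and 43.4 ± 1.3 FPKM after tobacco shisha on the heater (SD, n = 3 each). No exposed well reached the lowest control well at 24 h. The BNIP3 change minus the control change was -0.65, -1.47, -2.13 and -1.89 (log2, each with an SE of 0.12, adjusted p from 3.80e-11 to 0.000478). HK2 averaged 10.1 ± 0.82 FPKM in control wells at 24 h and 3.36 to 6.07 FPKM in the exposed groups. LDHA at 24 h averaged 511 ± 22 FPKM in control wells and 399 ± 98, 313 ± 29, 259 ± 22 and 157 ± 21 FPKM in the exposed groups, and its change was not called different after charcoal alone (adjusted p = 0.44).

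Over the hypoxia list the median was 0.54 in control wells against 0.32, 0.05, -0.09 and -0.02 in the exposed courses. The change differed from the control change in 23, 37, 38 and 40 of the 48 genes, and 18, 35, 36 and 34 of those lay below it. After median-of-ratios scaling 25, 37, 39 and 35 lay below. These shares may be read against the 23.2% to 57.6% of all genes that differed. After charcoal alone DDIT4, of the hypoxia list, rose by 2.58 and TXNIP by 2.99, both more than in control wells (adjusted p = 0.00178 and 1.13e-05). Their 2 h means there, 5.11 and 4.23 FPKM, were below the control means of 14.99 and 20.2 FPKM.

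**Figure D5:**
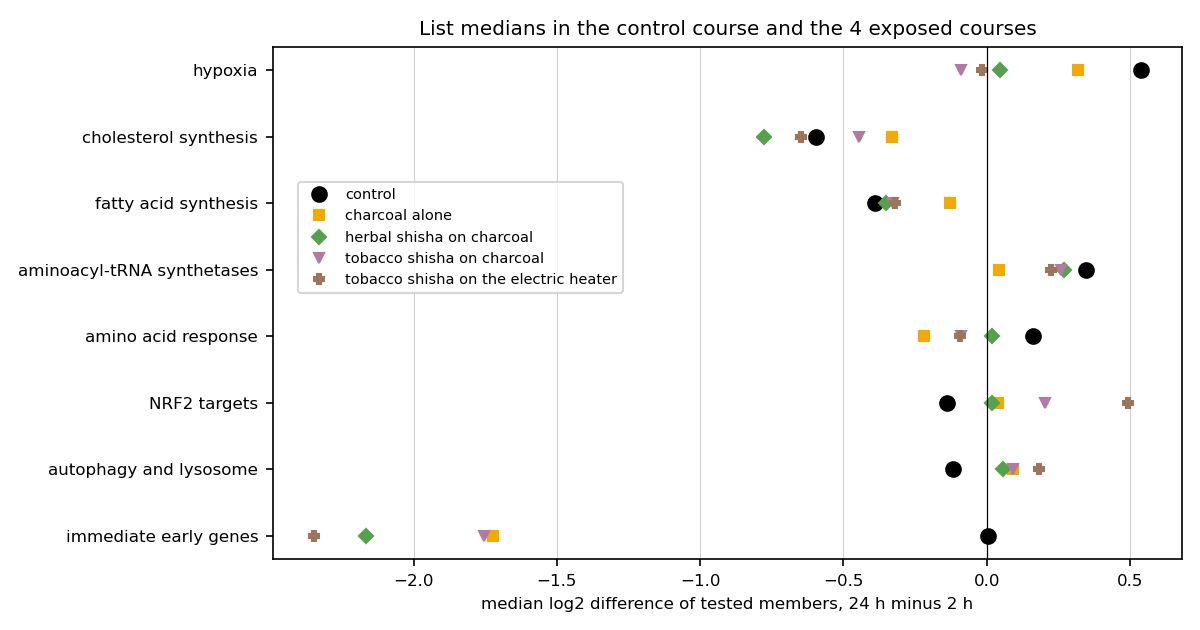
Median log2 change from 2 h to 24 h over the tested members of 8 gene lists, with a black circle for the control wells and coloured symbols for the 4 exposed courses. The hypoxia median was highest in control wells (0.54), the cholesterol medians lay between -0.78 and -0.33, and the immediate early median was 0.01 in control wells and below -1.7 in the 4 exposed courses.

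The fall of the cholesterol synthesis genes was shared by all courses. Cholesterol synthesis had a median of -0.60 in control wells and -0.33, -0.78, -0.45 and -0.65 in exposed wells, with 9, 12, 11 and 13 of 14 genes called lower. Over all genes 42.5%, 50.5%, 55.4% and 67.8% were called in either direction in those courses. Differences from the control course numbered 8, 1, 4 and 6 and, after median-of-ratios scaling, 1, 4, 0 and 6, so they rested in part on the scaling. HMGCS1 fell by 0.85 to 1.07 in every exposed course and by 0.84 in control wells, and the interaction was not called in any (differences of -0.23 to -0.01 with an SE of 0.22). FASN averaged 98.8 to 158 FPKM over the 5 conditions at 2 h, highest in control wells, and 60.7 to 95.7 FPKM at 24 h. It changed by -0.54, -0.70, -0.62 and -1.03 in the exposed courses, against -1.26 in control wells. The interaction was called in the first 3 (limma, adjusted p from 8.13e-05 to 0.00084) and not on the electric heater (adjusted p = 0.11). Median-of-ratios scaling gave the same calls.

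Of the 26 amino acid response genes 15, 7, 12 and 16 differed from the control change, with 14, 7, 12 and 11 below it. Those shares of 57.7%, 26.9%, 46.2% and 61.5% stand against 23.2%, 32.3%, 41.1% and 57.6% of all genes. The share was well above that of all genes after charcoal alone only. Of the 23 NRF2 targets 14, 14, 14 and 17 differed, with 9, 10, 13 and 15 above the control change. As deposited, 64.3%, 71.4%, 92.9% and 88.2% of the differing targets lay above, against 69.8%, 74.3%, 73.7% and 60.4% of all differing genes. The first 2 shares were thus no higher than over all genes. After median-of-ratios scaling the shares were 58.3%, 60.0%, 83.3% and 87.5%, against 42.0%, 44.9%, 47.0% and 50.8%. ASNS rose to 17.7 ± 1.6 FPKM in control wells and was at 3.75 ± 0.11 FPKM 24 h after charcoal alone, where its change minus the control change was -1.91 ± 0.34 (adjusted p = 0.00023). After herbal shisha on charcoal the ASNS wells spread from 7.85 to 25.8 FPKM, and the change was not called different from the control change. CHAC1 rose in control wells and changed by -0.76 to -0.31 in the exposed courses, with differences from the control change of -2.03 to -1.58, all 4 of them called. NQO1, which fell in control wells, rose by 0.62, 1.06 and 0.82 in the 3 courses with shisha and was not called after charcoal alone (0.01, adjusted p = 0.92). The immediate early list had a median of 0.01 in control wells against -1.72, -2.16, -1.76 and -2.35 in the exposed courses, where 18 or 19 of 21 genes differed from the control change. EGR1 fell by 2.18 to 5.79 in the exposed courses, from 2 h means of 10.5 to 340.5 FPKM that all lay above the control mean of 1.74 FPKM.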

How the data were processed

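RNA from 6 control wells of BEAS-2B cells was sequenced as 50 bp single reads from libraries made with 1 ug of total RNA, per the labels' protocols. The submitters' processing notes name HISAT2 2.1.0, StringTie 1.3.4d and the hg38 build, while the annotation and any strand setting are not stated there. The authors deposited FPKM per transcript, per the file headers, with no read counts, so depth is unknown and no count test was run. Each of the 30 files lists 29190 transcripts under 22538 names, and the transcript with the highest mean over the 30 libraries was kept per name. Of 27 names turned into dates, 26 were recovered.

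The 8531 genes that reached 1 FPKM in at least 3 of 30 libraries were tested on log2(FPKM + 1) with limma 3.58.1 (trend) in R 4.3.3, 1 mean per group over all 10 groups (20 residual and 2.76 prior degrees of freedom), and adjusted by Benjamini-Hochberg. Contrasts were control 24 h minus 2 h and each exposed change minus it. An exact permutation test of 3 against 3 wells cannot go below 0.1 and was not used. The script was tested on simulated data. No scaling was added. Replicate numbers did not pair wells (deviation correlations of -0.053, 0.052 and -0.05 between same-numbered wells). Alternatives were a replicate block, the 6 control libraries alone, other filters, a pseudocount of 0.1, median-of-ratios scaling, summed transcripts and leaving out each library.

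Genes were named as the 12 largest rises and falls with no overlap, up to 4 called members per list with the smallest p, and 15 fixed genes; further members of the lists were named to describe their roles after their values were seen. Some list members are counted but not reported by name here. The members and lists were chosen with earlier results of these data known. Motifs were searched by letters on both strands of RefSeq promoters. Tables and figures were made in Python 3.11.15.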

Additional observations from a re-analysis of the deposited data

Results flagged for a closer look

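The control change over time was set against that of each exposed course, and the difference was tested as an interaction in limma. The interaction was called for 1979 genes (23.2%) after charcoal alone and 2756 (32.3%) after herbal shisha on charcoal. It was called for 3502 (41.1%) after tobacco shisha on charcoal and 4918 (57.6%) after tobacco shisha on the electric heater. Among the 24 genes with the largest control changes, 7 had a called interaction in all 4 exposed courses. Those 24 were chosen on the control change, which enters the interaction. Over all called genes 64 of the 635 that rose (10.1%) and 155 of the 805 that fell (19.3%) had it in all 4. These genes too were called on the control change, so neither share is a background free of that choice. The share over all tested genes was not computed. The 7 among the 24 were BNIP3 (control change 2.20), SPAG4 (1.68), HK2 (1.44), CHAC1 (1.27), C10orf10 (1.27), PDK1 (1.25) and PINK1 (-0.85). After median-of-ratios scaling the first 6 still differed in all 4 courses, and PINK1 in 3, with an adjusted p of 0.15 for tobacco shisha on the electric heater. Groups of 3 wells were not tested for outlying samples.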

How the results depend on the processing

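No gene called both as reported and in another setting changed direction in the settings run. The count of 1440 genes became 1419 with a replicate block (1373 shared), which paired wells by number although the numbers did not pair them, 2088 when the 6 control libraries were fitted alone (1295 shared), 1379 with no filter, 1421 with a filter on control libraries, 1386 with a pseudocount of 0.1, 1455 with median-of-ratios scaling and 1437 with summed transcripts. Leaving out 1 library gave 885 to 1071 genes in all, 405 to 492 higher and 480 to 626 lower, from fewer samples, with the lowest of each without the third 2 h well (533 lower without the first). The interaction counts stayed within 1.5 times of 1979, 2756, 3502 and 4918 in each setting run, with the block at 1976, 2758, 3495 and 4916. Of 108 called named genes 75 kept their call in every setting and 33 lost it in at least 1, while CXCL8 (0.16), not called as reported, was called when the 6 control libraries were fitted alone. SMG1P3, CCL20, DHRS3 and LTBP3 lost their calls at a pseudocount of 0.1. Depth could not be read from FPKM, and low genes are understated by the log2(FPKM + 1) scale.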

Other observations

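Genes of glycogen turnover were collected after the values were seen, as a full list of 21 genes of which 14 were tested. Of these 5 rose and 1 fell, with a median of 0.11, where 7.44% of all tested genes rose and 9.44% fell. Of 6 synthesis genes 3 rose: PGM1 (20.3 ± 1.28 to 33.3 ± 0.838 FPKM), GYS1, the muscle-type glycogen synthase (23.4 ± 0.735 to 34.2 ± 0.633 FPKM), and the branching enzyme GBE1 (23.6 ± 0.242 to 35.4 ± 0.798 FPKM), which the hypoxia list also holds. Of 4 subunits that bring protein phosphatase to glycogen 2 rose, PPP1R3C (3.43 to 5.99 FPKM) and PPP1R3G (0.894 to 1.66 FPKM). Of 4 breakdown genes PYGB, the brain-type phosphorylase, fell (74.9 ± 0.640 to 63.3 ± 1.49 FPKM), and PYGL was at 50.6 and 54.01 FPKM (adjusted p = 0.12, limma).

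Histone genes named with the HIST prefix were likewise taken after the values were seen. Of 28 tested, 4 fell and 0 rose, with a median of -0.12, where 9.44% of all tested genes fell and 7.44% rose. So small a count is not far from those shares.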
